A study of Homo sapiens with 4 samples.

Results

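The pericentromere of chromosome 20 held the place with the most rDNA contact reads outside the viewpoint in every library of this 4C-rDNA dataset. The contact regions with their midpoint in chr20:25500000-31500000 (hg38) were taken around this place. They numbered 2120 of the 197703 regions of the 4 libraries. The 10 kb hot spot at chr20:29300000-29310000 held 15 of them. The window was selected on its read levels, so the levels are described without a test. The comparison of hemin-treated with untreated cells did not enter that choice.

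The study mapped inter-chromosomal contacts of the ribosomal RNA genes in K562 cells, a line of human erythroleukemia origin, by circular chromatin conformation capture with an rDNA viewpoint. In this method the chromatin is cross-linked and cut with EcoRI, joined ends are ligated, the product is shortened with FaeI and closed to circles, and the partners of the viewpoint are amplified outwards with 2 primers. There were 2 libraries of untreated cells and 2 of cells kept with 50 µM hemin, which induces erythroid differentiation, for 108 h. The paper describes the libraries as pairs of biological replicates. The labels do not say that replicates were separate cultures, so p-values measure only the spread between these libraries.

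The human rDNA repeats lie in arrays on the short arms of the acrocentric chromosomes, and each unit holds the genes for 18S, 5.8S and 28S rRNA followed by a long intergenic spacer. Pericentromeres are built of satellite DNA and of segmental duplications, copies of sequence from other chromosomes that include pieces of rDNA and of gene families such as FRG1 and DUX4. Contact reads from such copies are hard to place, because a short read can resemble several places.

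The viewpoint fragment lies in the intergenic spacer between a FaeI end, next to primer 1, and an EcoRI end, next to primer 2. It had 3 full copies on chromosome 21 of hg38, each of 297 bases, and a further 16 places in the genome resembled it. Of these, 4 lay in the chromosome 20 window, at 90.2% to 90.9% identity. One of the 4 was the hot spot. The primer 1 sides are shown first because the reads of the hot spot began next to them. Each runs in the direction of the primer, with the stretch aligned to the primer in capitals.

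chr21:8238161-8238246, + strand, viewpoint: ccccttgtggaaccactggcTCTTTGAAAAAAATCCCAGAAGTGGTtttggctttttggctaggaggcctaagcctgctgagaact
chr20:29304443-29304528, - strand, hot spot: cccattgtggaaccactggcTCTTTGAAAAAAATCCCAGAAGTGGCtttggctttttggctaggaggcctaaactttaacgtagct
chr20:29750884-29750969, - strand: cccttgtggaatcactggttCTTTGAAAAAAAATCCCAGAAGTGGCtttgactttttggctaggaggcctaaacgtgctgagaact
chr20:30497698-30497783, - strand: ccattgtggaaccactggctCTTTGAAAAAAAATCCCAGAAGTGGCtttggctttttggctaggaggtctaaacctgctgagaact
chr20:30914750-30914835, + strand: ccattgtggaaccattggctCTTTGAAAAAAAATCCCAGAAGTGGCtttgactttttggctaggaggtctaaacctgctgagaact

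Primer 1 has 26 bases and primer 2 has 24, and positions are counted from 1 at the 5′ end of each primer. The hot spot copy differed from primer 1 by T26C alone, its last base. The other 3 window copies carried the same T26C and 1 further A in the run of A, which has 7 letters in the primer and the hot spot and 8 in these copies. The hot spot copy was the only one of the 16 places within 1 change of primer 1, gaps included. The other 15 had 2 to 7 changes.

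The primer 2 side is shown for the viewpoint and the hot spot because it ends at the EcoRI site where ligation to a partner takes place. Capitals mark the primer and the EcoRI site GAATTC.

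chr21:8237845-8237943, - strand, viewpoint: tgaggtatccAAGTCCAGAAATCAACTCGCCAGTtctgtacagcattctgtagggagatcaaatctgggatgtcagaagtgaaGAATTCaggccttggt
chr20:29304746-29304844, + strand, hot spot: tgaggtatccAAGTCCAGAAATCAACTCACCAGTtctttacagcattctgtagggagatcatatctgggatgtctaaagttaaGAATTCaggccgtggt

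Of the 99 letters of this stretch, 92 were the same in both. Here the hot spot differed from primer 2 by G19A. The copies at 29750925 and 30497739 differed by T12G and by G19A, and that at 30914499 by C13A and T24C. All 4 window copies kept the EcoRI site, 50 or 55 bases from the primer 2 match. In the hot spot copy a FaeI site at 29304608 lay between the primer 1 match and the primer 2 match. FaeI sites of the other window copies were not located.

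Within 1 kb of the hot spot copy there were 1768470 and 1923772 reads in untreated replicates 1 and 2, and 995538 and 1009196 in hemin replicates 1 and 2. As RPM, here the reads per 1000000 reads outside the viewpoint copies, these were 112655, 114718, 108703 and 103962. The copy at 29750925, next to the pseudogene CDC27P3, had 1229, 1279, 1173 and 1159 RPM. That at 30497739 had 1119, 1121, 1155 and 1113. The copy at 30914499, which has 2 changes in each primer, had 518, 513, 525 and 510. The order of the copies was the same in all 4 libraries, with the hot spot far above the other 3 and the copies at 29750925 and 30497739 close together.

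The 12 places elsewhere in the genome ranged from a mean of 0.0319 to 9973 RPM. The highest of them, at 38051820 on chromosome 12, has 2 changes in primer 1 and 80.5% identity. The number of primer 1 changes did not fix the order, since 5 places elsewhere with 2 changes ranged from 78.7 to 9973 RPM. The part of the primer match in these counts was not tested.

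**Figure D1:**
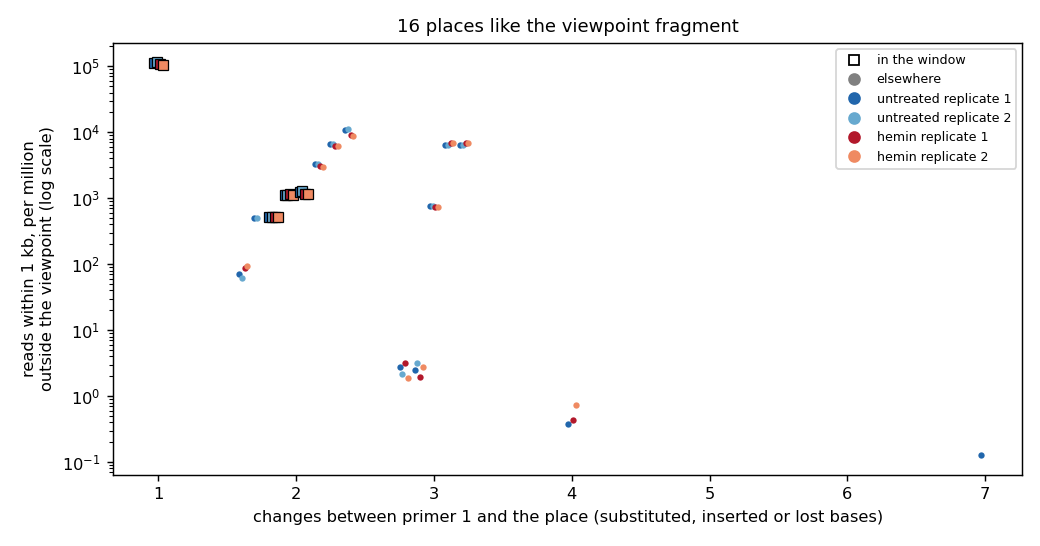
Reads within 1 kb of each of the 16 places that resemble the viewpoint, in RPM of reads outside the viewpoint copies (log axis), against the changes, gaps included, between primer 1 and the place. Each point is 1 library, squares are places in the window, places with the same number of changes are spread sideways, and values of 0 are not drawn. The chromosome 20 hot spot, with 1 change, stands at 103962 to 114718 RPM, above every other place.

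A single region made up the hot spot. It spanned chr20:29304002-29304474 in untreated replicate 1, with 1764820 reads. In untreated replicate 2 it spanned 29304026 to 29304466 with 1919605 reads, in hemin replicate 1 29304026 to 29304497 with 995447 reads, and in hemin replicate 2 29304025 to 29304475 with 1009190 reads. It held nearly all of the hot spot reads in each library, at the lowest 99.8%.

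This region began next to the primer 1 match and ran away from the viewpoint-like fragment. Its upper end lay from 16 bases before the primer 1 match to 15 bases inside it, while the strongest regions at the other 3 window copies ended 30 to 49 bases before theirs.

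The region held no EcoRI site, and a FaeI site at 29304312 lay inside it. The nearest EcoRI site, at 29304829, was 354 bases away on the far side of the viewpoint-like fragment and was the only EcoRI site in the 10 kb. Of the first 72 letters of the primer 1 side, 70 equalled the viewpoint, and over the whole 86 letters 75 did. The region sequence had no exact copy elsewhere in hg38. At 90% identity or more over at least 400 bases, 6 further stretches resembled it, the closest at 93.4%, and 1 of the 6 lay in the window. Repeat-masked lower case made up 94.7% of its bases.

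The other regions of the hot spot were weak. A region at the EcoRI end had 3368 reads at 29304806 to 29304919 in untreated replicate 1 and 3684 at 29304812 to 29304913 in untreated replicate 2. It had 59 reads in hemin replicate 1 and was not found in hemin replicate 2. A region from 29303893 had 280 and 475 reads in untreated cells, and 31 and 6 after hemin. At both of these places the untreated counts exceeded the hemin counts by more than the difference in depth between the libraries.

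The hot spot took 11.3% and 11.5% of the untreated reads outside the viewpoint copies, and 10.9% and 10.4% of the hemin reads. The means were 11.4% ± 0.146 and 10.6% ± 0.335 (SD, n = 2 each). Both hemin libraries lay below both untreated ones. A two-sided exact permutation test gave p = 0.333, the smallest p that 2 libraries against 2 can give. In the fit of reads per 10 kb bin with edgeR, the log2 fold change of the hot spot was -0.068 (SE 0.02), with an adjusted p of 0.0590. It therefore did not pass the threshold of 0.05, but scaling by total reads outside the viewpoint gave -0.10 with an adjusted p of 0.0268. Without hemin replicate 2 the fitted change was 0.039, and without untreated replicate 1 or 2 it was -0.31 and -0.24. In the same fits the median log2 fold change over all bins tested was -9.32, 9.88 and 9.84, against 0.35 with every library. The share of hemin replicate 1, 10.9%, was below both untreated shares. Whether the scaling of these fits moved the hot spot was not tested.

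Relative to the viewpoint itself, the hot spot had 11.0 and 11.2 reads per 100 viewpoint reads without hemin, and 9.58 and 9.28 with it. It held 1.48 to 1.71 times the reads of the next strongest 10 kb bin of the genome outside the viewpoint copies, which lies at 8210001 on chromosome 21.

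**Figure D2:**
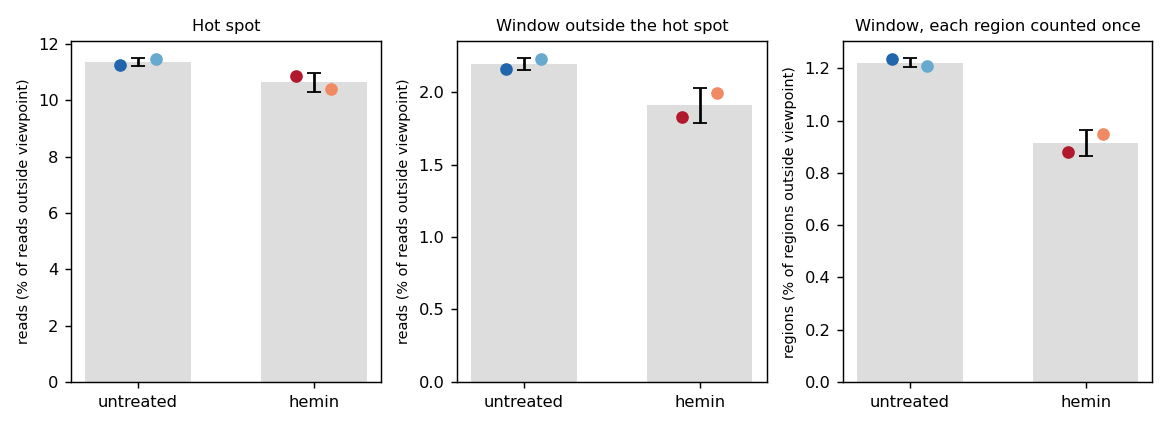
Share of reads outside the viewpoint copies that fell in the hot spot and in the rest of the chromosome 20 window, and share of regions outside the viewpoint copies that lay in the window, in percent. Points are libraries, bars are group means and error bars are SD (n = 2). The hemin libraries lie below the untreated ones in each panel.

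Outside the hot spot the window was a field of many weak regions and a few strong ones. It held 623, 602, 410 and 470 regions in untreated replicates 1 and 2 and hemin replicates 1 and 2, with 339554, 373270, 167219 and 193784 reads. The 10 strongest regions took 53.5% to 59.4% of these reads, while the median region had 6 to 9 reads. Regions of 1 read made up 23.1% to 24.1% of the window, and 15.0% to 16.2% of the regions outside both the window and the viewpoint copies.

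As a share of reads outside the viewpoint copies, this part of the window had 2.16% and 2.23% without hemin and 1.83% and 2.00% with it. The fitted log2 fold change was -0.17 (SE 0.07), with an adjusted p of 0.0759 by edgeR. DESeq2 gave -0.20 with an adjusted p of 0.00233. The share of regions outside the viewpoint copies that lay in the window, hot spot included, was 1.24% and 1.21% without hemin and 0.881% and 0.951% with it (1.22% ± 0.0188 and 0.916% ± 0.0494, SD, n = 2). The groups did not overlap, and the exact permutation p was 0.333. With reads thinned to the smallest library the shares were 1.16%, 1.16%, 0.881% and 0.951%, in the same order of libraries.

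The limits of the window lay in thinly covered sequence. The first regions inside the lower limit, at 25609643 to 25648882, had 66 to 92 reads, and the last ones before it had 1 to 55. At the upper limit the last regions inside had 2 to 1412 reads, and the first beyond had 1 to 571. On either side of the hot spot limits stood the regions at 29298518 and at 29312854, which are described below with their bins.

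Pieces of rDNA other than the viewpoint also lay in the window. Alignment with 1 rDNA unit of chromosome 21 (8212572 to 8256780) found 5 rDNA-like segments, 76.8 kb or 1.28% of the window. They held 35.7%, 31.5%, 33.8% and 37.9% of the reads outside the hot spot, but 2.89%, 2.99%, 4.39% and 3.40% of the regions. The segment at 29297316 to 29314208 contains the hot spot. The segments at 29742754 to 29757457, 30485082 to 30511620 and 30904951 to 30921713 contain the other viewpoint-like copies. The segment at 26208002 to 26209878, over the microRNA gene MIR663A and its host MIR663AHG, is 88.4% identical to rDNA and held no region in any library.

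The strongest place outside the hot spot resembled 18S rDNA. The bin from 29290001 had 59271, 70686, 33064 and 34000 reads, nearly all in a region from 29298518 next to an EcoRI site and 1.27 kb from a 5_8S_rRNA copy. The 280 bases around it were 91.1% identical over an alignment of 282 bases to chr21:8211094-8211375, in RNA18SN2, an 18S rRNA gene. The sequences are shown with the EcoRI site in capitals, lined up at that site, to let both places be compared.

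chr20:29298512-29298611, + strand: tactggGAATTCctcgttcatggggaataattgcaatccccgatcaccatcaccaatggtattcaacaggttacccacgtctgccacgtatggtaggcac
chr21:8211181-8211280, - strand, 18S: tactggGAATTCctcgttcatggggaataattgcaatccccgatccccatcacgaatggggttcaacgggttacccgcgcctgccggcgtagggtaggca

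The first stretch of both was identical, and without gaps 81 of the 100 letters were equal. The 18S counterpart itself had 75412, 80316, 48838 and 50315 reads. The chromosome 20 region was not in the repeat-filtered files. The bin had a log2 fold change of -0.14 with an edgeR adjusted p of 0.139.

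The strong bins from 29750001 and 30490001 held viewpoint-like copies, with log2 fold changes of -0.076 and 0.042 (edgeR adjusted p 0.147 and 0.208). Neither passed the test. At these bins the strongest regions lay over 100 bases from any EcoRI site, as in the hot spot, while the strongest regions of the other 6 strong bins lay within 100 bases of one.

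Some strong bins were made of different regions in different libraries. The bin from 29320001, near the pseudogenes DUX4L33 and PCMTD1P7, had 19601, 20844, 15877 and 14088 reads and rose after hemin by the edgeR fit (log2 fold change 0.38, adjusted p 0.0156). Its change was 0.16 without untreated replicate 1 and 0.19 without untreated replicate 2. With no filter on low counts it was not called (0.30, edgeR adjusted p 0.115). Its region from 29326087 had 19469 and 20725 reads in untreated cells. The same place had 6838 and 5537 reads after hemin. A region from 29323158 had 4069 and 4322 reads in the hemin libraries, and the untreated regions that overlapped it had 128 and 119. A region near 29323692 had 4961 and 4226 reads in the hemin libraries alone.

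Replicates disagreed in a pair of bins. That from 29310001 had 17126, 124, 2810 and 18193 reads, and its strong region near 29312854 was present in untreated replicate 1 and hemin replicate 2 alone. That from 29270001 had 5249, 14232, 10795 and 0 reads. Their adjusted p by edgeR were 0.680 and 1.0. The bins from 29330001 (13847, 15254, 6928 and 6918 reads) and from 30720001 (13235, 14544, 6526 and 7024 reads, near the pseudogene ANKRD20A21P) fell by 0.26 and by 0.22 on the log2 scale (edgeR adjusted p 0.0058 and 0.00945). Without hemin replicate 2 the changes were -0.14 for the first and -0.16 for the second. Without hemin replicate 1 the second changed by -0.11.

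**Figure D3:**
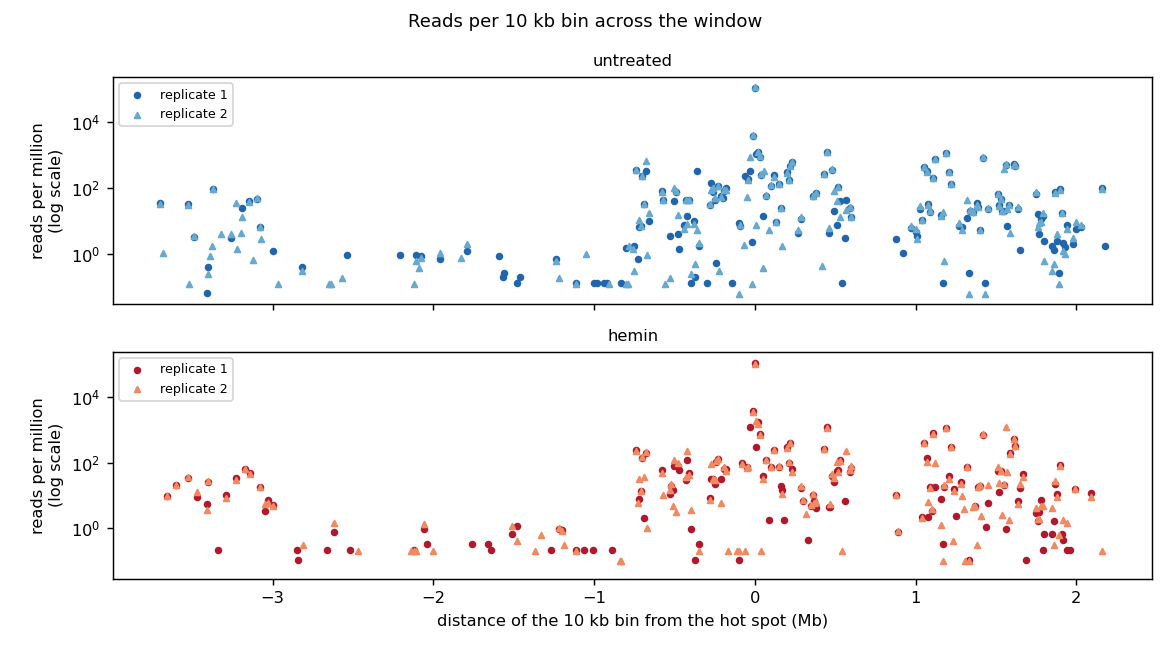
RPM of reads outside the viewpoint copies in each 10 kb bin of the chromosome 20 window (log axis) against the distance of the bin from the hot spot in Mb, with untreated libraries above and hemin libraries below. Each point is 1 bin in 1 library, and bins without reads are not drawn. The hot spot is the highest point in both panels, and the low points to its left include the stretch with 31 to 37 regions per library.

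Across the window, 267 bins of 10 kb had reads, and 170 passed the filter of at least 10 reads in at least 2 libraries. By edgeR 44 were higher and 67 lower after hemin at an adjusted p under 0.05. Over the whole genome 47.8% of the 29913 bins tested were called higher and 43.4% lower, 91.3% in either direction. The share of window bins called was therefore below the background. DESeq2 called 44 higher and 72 lower, with 91.7% of all bins called. With the replicate number as a block edgeR called none in either direction.

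Many calls were bins with reads in 1 group only. Among the tested window bins, 28 had no read in either hemin library and 22 had none in either untreated library. All 22 of the latter were called higher, and 27 of the 28 lower. Over the genome 22967 of the 29913 bins tested had no read in either library of 1 group. Such bins were thus a smaller share of the window than of the genome. Outside the hot spot, bins with reads in every library made up 50.9% of the window bins tested and 14.9% of all bins tested. Of these 86 window bins, 17 were called higher and 33 lower, 58.1% in all against 72.7% over the genome, and their median log2 fold change was -0.25 against 0.01. Where bins were filled with numbers of regions instead of reads, 17 of 193 window bins were higher and 19 lower, with 23.1% and 20.7% of the 33829 bins of the genome called higher and lower, 43.8% in all.

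The largest changes were single regions at EcoRI sites found in 1 group. The region from 26130397, near the long non-coding RNA gene ENSG00000230440, had no reads in untreated cells and 592 and 639 after hemin. Regions in the bins from 26160001 and 29220001 likewise went from none to 441 and 422 reads, and to 862 and 860. In the opposite direction, the bin from 25930001 near the pseudogene CFTRP1 had 1485 and 1604 reads in untreated cells and none after hemin. The bin from 26150001 had 640 and 618, and that from 26200001, in MIR663AHG, 736 and 839, again with none after hemin. Within the gene ENSG00000287211 the region at 26154412 to 26154490 was lost and that at 26162099 to 26162197 appeared, and the gene as a whole (640, 618, 441 and 422 reads) was not called.

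**Figure D4:**
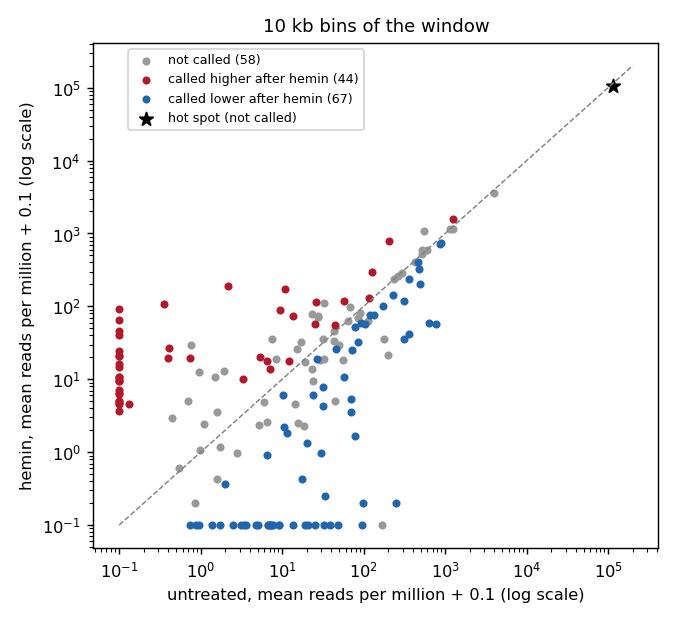
Mean RPM of the hemin libraries against that of the untreated libraries for each tested 10 kb bin of the window, with 0.1 added to both (log axes). Colours mark the 44 bins called higher and the 67 called lower by edgeR, the star is the hot spot and the dashed line marks equal values. The hot spot lies next to the line, and points along the left and lower edges are bins with no reads in 1 group.

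Of 81 genes annotated in the window, 31 had assigned reads when regions were widened by 2.5 kb and given to a gene only where they met 1 gene. Over the genome 10033 genes had assigned reads, and their share of all annotated genes was not computed. Of the 26 tested, 5 were higher and 15 lower after hemin by edgeR. Over the genome 45.8% of the 7405 genes tested were called higher and 40.7% lower, 86.6% in all. By DESeq2 6 were higher and 16 lower, with 89.3% of all genes called. Counted once per region, no window gene was called, with 2.35% called over the genome, 1.25% higher and 1.11% lower.

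Of the genes in the window from a list of the region's known genes, 9 of 22 had reads, and 0 were higher and 5 lower by edgeR. Of the 9, NANP had too few reads to be tested. Over the genome 45.8% of the genes tested were called higher and 40.7% lower. FRG1BP, a pseudogene of the muscular dystrophy region gene FRG1, had 2338, 2358, 418 and 222 reads and fell by 2.36 on the log2 scale (adjusted p 0.0112). Its relative FRG1DP had 1661, 901, 285 and 58 reads (-2.38, adjusted p 0.102) and FRG1EP 0, 29, 148 and 105 reads, and neither passed the test. MIR663AHG, the host transcript of MIR663A, had 839, 992, 164 and 173 reads and fell by 1.94 on the log2 scale (adjusted p 0.000676). FAM182B, a long non-coding RNA gene, had 560, 567, 311 and 353 reads and fell by 0.26 (adjusted p 0.0320), though its change was 0.017 when scaled by total reads outside the viewpoint.

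Beta-defensin genes, which encode antimicrobial peptides of epithelia, lie at the distal end of the window. DEFB124 had 1586, 1588, 0 and 2 reads, and DEFB116 had 85, 151, 0 and 0, and both were called lower. No reads were assigned to DEFB115, DEFB118, DEFB119, DEFB121, DEFB122 or DEFB123, nor to REM1, NINL, ZNF337, NCOR1P1, FRG1CP, MLLT10P1 or MIR663A. Regions at NCOR1P1, which is annotated under 2 gene identifiers, and at FRG1CP, which ENSG00000291100 overlaps, each met more than 1 identifier and were not counted. FAM182A had 47, 659, 307 and 295 reads and was not called, and NANP had 18 reads in 1 library.

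Pseudogenes of DUX4, a double-homeobox gene of the subtelomeric D4Z4 repeats, lie in the window from the hot spot onwards. DUX4L33 had 19469, 20725, 6847 and 5540 reads and fell by 1.19 on the log2 scale (edgeR adjusted p 0.00553), but its change was 0.092 when reads were given to every gene met. DUX4L37 had 546, 223, 0 and 0 reads. DUX4L34 had 132, 152, 45 and 58. DUX4L32 went the other way, with 0, 124, 2810 and 2910 reads, and did not pass the test (adjusted p 0.0708). DUX4L35 had no reads. Of the 4 with reads, DUX4L33, DUX4L34 and DUX4L37 were called lower by edgeR (adjusted p of the last 2: 0.0101 and 0.0124). Over the genome 40.7% of the genes tested were called lower.

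The 5_8S_rRNA copy, which takes the reads of the 18S-like region through the widening, had 58940, 68540, 30354 and 31090 reads and fell by 0.55 on the log2 scale (edgeR adjusted p 0.00413), or by 0.27 with scaling by total reads outside the viewpoint (adjusted p 0.0156). In the fit of bins the change of the bin with these reads was -0.14. The non-coding RNA gene FAM242A had 7101, 8056, 3748 and 3943 reads and fell by 0.48 (adjusted p 0.00386), or by 0.19 with scaling by total reads (adjusted p 0.0225). Without hemin replicate 2 its change was -0.30. ANKRD20A21P, a pseudogene of the ANKRD20A family, had 1349, 1351, 393 and 474 reads and fell by 1.14 (adjusted p 0.00144). ENSG00000291100, a long non-coding RNA gene that overlaps FRG1CP, had 5702, 5813, 2290 and 2276 reads and fell by 0.83 (adjusted p 0.00103). All of these had more reads in both untreated than in both hemin libraries also after scaling, while 40.7% of all genes tested were called lower. Genes of at least 100 reads that had them in hemin libraries alone were ENSG00000230440, ENSG00000226465 (192 and 204 reads), ENSG00000290901 (139 and 134) and the 5S rRNA pseudogene RNA5SP528 (174 and 336). RNU6ATAC17P, with 529 and 534 reads, and AGGF1P10, with 139 and 157, had them in untreated libraries alone, as did DUX4L37 and DEFB116. The share of such genes over the genome was not computed. Among 10 kb bins, 22967 of the 29913 tested over the genome had no reads in either library of 1 group. RNA5SP532 had 144, 132, 0 and 2160 reads, with its reads after hemin in a single library.

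Regions of the window recurred between groups more often than those elsewhere. Outside the hot spot 35.8%, 38.0%, 46.8% and 47.4% of them overlapped a region of the other group, in the order of the libraries above, against 17.3% to 17.7% in the rest of the genome. Overlap with the other replicate of the same group ran the other way, at 57.4% to 65.6% in the window against 70.3% to 74.4%. When regions within 2.5 kb counted as recurring, that order turned, with 87.0%, 84.9%, 83.7% and 77.4% in the window and 82.8%, 83.2%, 80.5% and 77.0% elsewhere. The regions present in all 4 libraries, 126 to 129 of each, held 69.5% to 78.3% of the window reads outside the hot spot.

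Repeated sequence filled the window. Lower case made up 71.5% to 75.0% of the bases of its regions outside the hot spot, and 50.8% to 53.5% of those on the rest of chromosome 20. Regions of at least 30 bases had an exact copy elsewhere in hg38 in 31.8% to 38.2% of cases, against 5.99% to 7.93%. An EcoRI site lay within 100 bases of 32.6% to 39.4% of window regions, against 54.0% to 55.8%. For regions of more than 100 reads it was 78.8% to 85.8% and 94.1% to 95.1%.

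The authors' repeat-filtered files hold only regions found in both replicates of a group. They lacked the strongest region of the hot spot, which every library held. Regions that overlapped the repeat-filtered file of their group held 0.191% and 0.192% of the untreated hot spot reads and none of the hemin reads. The untreated file kept the EcoRI-end region at 29304812 to 29304913, with a signal of 3526, and a region with a signal of 2. The hemin file held no region there, where the EcoRI-end region was found in hemin replicate 1 alone. In the rest of the window 45.0%, 46.2%, 45.4% and 39.9% of the reads lay in regions that overlapped these files. This was close to the 42.5% to 43.9% found in the rest of the genome. Of the regions, 25.7% to 33.6% overlapped them, against 38.1% to 41.1%. A region can be absent for its repeats or for a missing replicate, and these were not separated. The filtered files held 204 untreated and 121 hemin regions in the window, 0.991% and 0.642% of all their regions.

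Satellite sequence was covered unevenly. The stretch at 26596364 to 28499358, where the centromeric satellite lies and EcoRI sites number 8.93 per Mb, held 37, 31, 34 and 33 regions with 133, 133, 77 and 85 reads. The longest stretch without any region in the 4 libraries spanned 29906180 to 30185089, and holds a gap of unknown bases in hg38 at 30038349 to 30088348. At the distal end, the stretch at 31051509 to 31107036 held 85 and 85 regions in untreated cells with 1764 and 2007 reads, and 30 and 25 regions after hemin with 142 and 168 reads.

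Many regions of that distal end were made of the pentamer GGAAT, the unit of human satellites 2 and 3. A region with at least 3 copies of GGAAT, or of its complement ATTCC, was called GGAAT-rich, a definition chosen after the data were seen. The one with most reads in untreated replicate 1 is shown with each GGAAT in capitals.

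chr20:31201554-31201608, + strand: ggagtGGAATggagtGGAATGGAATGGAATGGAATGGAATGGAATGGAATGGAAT

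The window held 116 and 100 GGAAT-rich regions in untreated cells and 43 and 40 after hemin (108 ± 11.3 and 41.5 ± 2.12, SD, n = 2). Of these, 113, 98, 42 and 38 lay in the last 0.5 Mb. The groups did not overlap, with an exact permutation p of 0.333. At equal depth the numbers were 100, 84, 43 and 39. Other window regions numbered 511, 507, 371 and 432, and the hemin to untreated ratio was 0.384 for GGAAT-rich regions and 0.789 for the other regions of the window. Within the last 0.5 Mb, however, the other regions numbered 54.5 ± 16.3 in untreated cells and 22.5 ± 7.78 after hemin (SD, n = 2), a ratio of 0.413 beside 0.379 for the GGAAT-rich regions there. GGAAT-rich regions had 325 ± 3.35 RPM of reads outside the viewpoint in untreated cells and 127 ± 14.9 after hemin.

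GGAAT-rich regions were also fewer after hemin outside the window, with 1007, 978, 550 and 554 of them and a ratio of 0.556. There they made up 1.97% of the untreated and 1.14% of the hemin regions outside the viewpoint copies. Whether the ratio differed between the window and the rest of the genome was not tested.

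**Figure D5:**
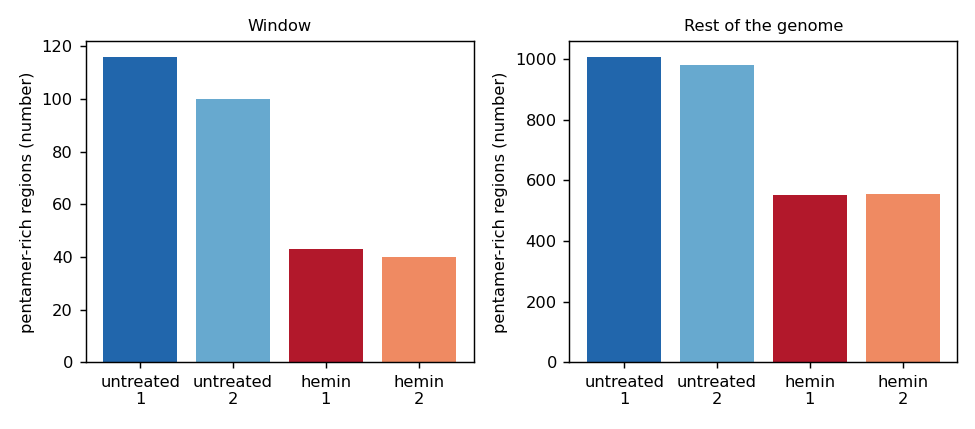
Number of GGAAT-rich regions in each library (bars) in the chromosome 20 window and in the rest of the genome outside the viewpoint copies. In the window the untreated libraries have 116 and 100 and the hemin libraries 43 and 40.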

How the data were processed

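K562 4C-rDNA libraries were analysed from the authors' region files, 2 untreated and 2 hemin-treated. Per the study's methods and the submitters' processing notes, the authors trimmed reads with cutadapt 3.5, kept those with a 4C primer, aligned them to hg38 with BWA 0.7.17-r1188 and formed regions with SAMtools 1.14 and bedtools 2.29.1. The deposited replicate files give raw counts of reads per region. The deposited repeat-filtered files hold regions found in both replicates of a group, with 1 signal per region and group. No removal of PCR duplicates is stated, and the reads carry no molecular identifiers. Libraries held 19548906 to 34000240 reads, 9158290 to 16769647 of them outside the viewpoint copies (3 copies widened by 10 kb), and 47042 to 50751 regions. Columns without a sample or group numbered 0.

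Regions were given to 10 kb bins by midpoint, and to genes (GENCODE release 44) after widening by 2.5 kb. Bins and genes with at least 10 reads in at least 2 libraries were tested across the genome with the quasi-likelihood test of edgeR 4.0.16 (R 4.3.3), with TMM scaling on reads outside the viewpoint, a model with treatment alone, and p-values adjusted by Benjamini-Hochberg with a threshold of 0.05. The study used DESeq2. It was run as the alternative (1.42.0, local fit), because an earlier simulation on these data had shown many false calls. In simulated counts for the bins, edgeR recovered 43.5% of the changed bins with 3.33% of its calls false, and DESeq2 54.0% with 50.2% false. For genes these were 41.0% and 2.38%, and 59.5% and 42.2%. The simulation used 1 common dispersion (0.127 for bins, 0.169 for genes) and changed 200 of 29076 bins and 200 of 7305 genes. In the data edgeR called 91.3% of bins, so these rates do not give the false share of the calls here. Shares were compared by exact permutation over libraries. Sequences came from hg38, were aligned with BLAST+ 2.17.0 and were searched in Python 3.11.15 with SciPy 1.17.1, pysam 0.24.0, pandas 2.3.3 and NumPy 2.4.6. Plots used matplotlib 3.10.9. Viewpoint-like places were searched with the primers given in the study's methods.

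The named items were the strongest regions of the hot spot, the 8 strongest other bins, the 3 highest and 3 lowest called bins with at least 100 reads in both libraries of a group, genes with at least 100 reads in a library, and a list of 24 genes of the region, of which HM13 and ID1 fell outside the window. The window, lists and tests were chosen with earlier results of these data known. Alternatives covered the test, scaling, filters, bin size, replicate block, leaving out each library, repeat filter, depth and gene assignment. Replicates of a group differed beyond sampling noise and were kept separate. The sequence of the strongest region is not reported here.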

Additional observations from a re-analysis of the deposited data

How the results depend on the processing

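The hot spot, at a log2 fold change of -0.068, was lower after hemin in all alternatives but 1. Scaling by total reads gave -0.10 without and -0.17 with the viewpoint, and bins of 5, 20 and 100 kb gave -0.078, -0.11 and -0.35. Leaving out each library gave -0.31 to 0.039, with 0.039 without hemin replicate 2. The share of reads in hemin replicate 1 was nonetheless below both untreated shares, at 10.9% against 11.3% and 11.5%. Repeat-filtered regions, with no hemin reads, gave -9.45 when 3 reads were set for each hemin library. This value is neither a size nor a bound for the hot spot, because the filtered files lacked its strongest region. At the EcoRI-end region kept in the untreated file, hemin replicate 1 had 59 reads before the filter. The rest of the window, at -0.17, passed the test at -0.20 with DESeq2, with its size factors and with total reads, at -0.27 with the viewpoint and at -0.36 in repeat-filtered regions, and ranged from -0.42 to -0.01 when libraries were left out.

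Calls depended on the setting more than directions did. With the replicate number as a block (replicate block), 0 bins were higher, 0 lower, 0 genes higher and 1 lower, while the hot spot stayed at -0.067 and the rest of the window at -0.17. Over the genome this setting called 0 bins, and 295 genes higher and 342 lower of 7405. The deviations of same-numbered libraries correlated at -0.0130 over bins and 0.00703 over genes. Of the 29913 bins tested, 22967 had no reads in either library of 1 group, which pulls such a correlation towards 0. It therefore cannot tell whether the numbers pair the libraries. Counting each region once gave 17 bins higher and 19 lower, and no gene. Repeat-filtered regions gave 28 bins higher and 65 lower of 99 in the window, with 8883 and 9031 of 18255 over the genome. For genes these were 3 and 15 of 19, with 2633 and 2432 of 5204. Bins of 100 kb gave 5 higher and 24 lower of 44, with 7458 and 6312 of 16674. Reads given to every gene gave 10 genes higher and 14 lower of 33, with 5506 and 4882 of 11934. Regions not widened gave 3 genes higher and 10 lower of 16, with 3131 and 2843 of 6957. Leaving out a library gave 20 to 49 bins higher (fewest without hemin replicate 2), 35 to 78 lower (fewest without untreated replicate 2), 0 to 8 genes higher (none without hemin replicate 2) and 8 to 14 lower. With 1 library left in a group, the filter drops bins seen in that library alone, and that library is assumed to vary like the others. Over the genome the median log2 fold change of bins was 9.88 and 9.84 without untreated replicates 1 and 2. It was -9.26 and -9.32 without hemin replicates 1 and 2, against 0.35 with every library. The swing in calls when a library was left out therefore cannot be read as a property of the window.

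The share of window reads moved from -1.02 points to -0.804 with the viewpoint kept, and outside the chromosome 21 short arm to -2.56, the hot spot to -1.99 and the rest to -0.571. The share of regions moved from -0.307 points to -0.242 for regions of at least 10 reads, and to -0.244 at equal depth. Recurrence in the other group, 42.0% on average, was 75.7% within 2.5 kb and 55.1% for regions of at least 10 reads. The ratio of GGAAT-rich regions was 0.446 at equal depth. The equal-depth settings of these 2 results were chosen after seeing the data.

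Some named places changed sign. Leaving out each library, the bin from 29270001 ranged from -16.00 (without hemin replicate 1) to 1.09, and FAM182A from -0.73 (without untreated replicate 1) to 3.02. The bin from 30490001 ranged from -0.18 to 0.14, below 0 without either untreated library, and RNA5SP532 from -9.91 (without hemin replicate 2) to 4.58. In repeat-filtered regions the bin from 29270001 gave -14.95, that from 29290001 1.93, FAM182A -8.55 and MIR663AHG 1.14. The fits of -16.00, -9.91, -14.95 and -8.55 were against no hemin reads and are neither sizes nor bounds. Counted once, the bin from 29330001 gave 0.82, DUX4L33 0.88 and 5_8S_rRNA 0.35. With reads given to every gene FAM182B gave 0.14, DUX4L33 0.092 and AGGF1P10 0.73, and FAM182B was 0.017 when scaled by total reads. Where a value passed the threshold in neither setting, its sign was not compared. The cause of these changes was not tested.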
